A study of Mus musculus with 12 samples.

Results

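The core circadian clock genes examined here were 10 named genes (Arntl, Clock, Npas2, Per1, Per2, Per3, Cry1, Nr1d1, Nr1d2 and Dbp) of the 52636 genes counted in each library. They were chosen by name, as components of the transcriptional clock and its best known direct output, and each symbol matched 1 gene of the count tables. Liver RNA was sequenced from 12 male C57Bl/6J mice at 16 weeks of age, with 1 library per mouse. In 6 mice (VDD-F1) the mothers had been fed a vitamin D deficient diet before mating and through pregnancy, and in the other 6 (VDS-F1) a vitamin D sufficient diet. All mothers received the sufficient diet after delivery and all offspring after weaning, so the groups did not differ in diet from weaning on. The paper states as a limitation that the VDD-F1 offspring still met deficient or insufficient vitamin D in their first weeks of life. The deficient diet came with a calcium gluconate supplement for the mothers. No mouse carried an engineered allele. The time of day at which the livers were taken is not given in the sources used here. The study's supplement gives a liver weight for 7 of the mice (VDS3 to VDS6 with VDD4 to VDD6) but not for VDD1 to VDD3, VDS1 and VDS2, and these 7 and 5 mice are called the sets of mice below. Nothing in the sources used here says whether the sets were dissected on different days.

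The clock runs as a feedback loop of transcription. CLOCK or its relative NPAS2 pairs with ARNTL (also called BMAL1) and binds E-box sequences to switch on the Per, Cry, Nr1d and Dbp genes, PER and CRY proteins return to the nucleus and inhibit that pair, and the NR1D receptors (REV-ERBs) repress Arntl and Npas2. In the liver of mice kept in a daily light cycle, Arntl, Npas2 and Clock transcripts are known to be high around the end of the dark phase, Nr1d1 in the light phase, Dbp, Nr1d2 and the Per genes towards and just after its end, and Cry1 later in the dark phase, so the balance between these transcripts differs with the hour of sampling and with feeding time.

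The loop is known to act through short promoter elements, and 3 of the promoters searched held letters that match one. The 250 bases upstream of each start were searched on both strands for the E-box CACGTG (bound by ARNTL with CLOCK or NPAS2), the D-box TTATGNAA (bound by DBP and its relatives), and the ROR elements, AANT followed directly by AGGTCA or by GGGTCA (bound by the NR1D and ROR receptors). RefSeq entries on GRCm38.p6 were at hand for 9 of the 10 genes, with 13 promoters in all. Per2 had no entry. Cry1 and Per1 each had an E-box, which 6.02% of 32851 mouse promoters also had, and Per1 and Per3 had D-boxes, which 3.07% had. The ROR elements, found in 0.35% of all promoters, were in none of the 13. The first bases of the Per1 matches lay at positions -166 (E-box) and -24 (D-box), those of Per3 at -205 and -158 (D-boxes), and that of Cry1 at -60 (E-box), counted from the start. A match describes these letters only, and no match says nothing of binding elsewhere. The 3 windows are shown because they are the ones with a match, with the matches in capitals, as the strand of the gene, 5′ to 3′.
Per1, chr11:69098699-69098948, plus strand: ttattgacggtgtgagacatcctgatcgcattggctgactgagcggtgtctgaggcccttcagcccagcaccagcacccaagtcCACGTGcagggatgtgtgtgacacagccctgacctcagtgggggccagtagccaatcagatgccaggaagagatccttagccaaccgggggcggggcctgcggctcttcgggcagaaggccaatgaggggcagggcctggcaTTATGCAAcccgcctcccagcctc
Per3, chr4:151044666-151044915, minus strand: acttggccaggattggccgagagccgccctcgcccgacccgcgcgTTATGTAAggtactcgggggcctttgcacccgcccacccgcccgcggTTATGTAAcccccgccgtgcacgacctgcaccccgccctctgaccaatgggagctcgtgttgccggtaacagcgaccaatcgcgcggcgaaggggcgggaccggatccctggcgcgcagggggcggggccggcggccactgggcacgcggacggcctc
Cry1, chr10:85185055-85185304, minus strand: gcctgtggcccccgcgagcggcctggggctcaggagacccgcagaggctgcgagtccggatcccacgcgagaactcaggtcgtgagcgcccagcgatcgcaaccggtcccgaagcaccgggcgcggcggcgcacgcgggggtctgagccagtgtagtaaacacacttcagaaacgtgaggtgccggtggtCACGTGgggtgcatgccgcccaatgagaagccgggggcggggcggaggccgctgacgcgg

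Each library had between 14275793 and 20815066 fragments counted on genes, and each clock gene had between 4 and 4361 counts in a library. All 10 passed the filter (a mean count of at least 12), as did 12453 genes in all. Levels are given as CPM, counts scaled to the library size after edgeR's TMM scaling of the libraries. VDS6 stood apart, with 11.1% of its fragments on no annotated exon of the counted strand, against 2.52% to 4.94% in the other 11 libraries. The 5 hepatocyte markers summed to between 76177 and 105891 CPM, so the tissue matched its label. The 5 erythroid markers summed to between 237 and 483 CPM with a weight on record and between 522 and 1370 CPM without, so the sets did not overlap in this sum, though they did in Alas2, and the part of blood RNA in the results was not tested. The defining lymphocyte markers Cd3e, Cd8a, Ms4a1 and Nkg7 were at 0 in at least 1 library. In bulk tissue, fewer cells of a type and less RNA per cell cannot be told apart.

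Per length of exon, Nr1d1 was the most abundant clock transcript and Per3 the least. Nr1d1 averaged 38.4 ± 23.0 CPM per kb (SD, n = 12), Nr1d2 8.12 ± 3.18, Dbp 7.89 ± 10.98, Clock 5.55 ± 1.01 and Per1 5.47 ± 2.55 CPM per kb. Below these, Cry1 averaged 3.73 ± 1.37, Arntl 2.75 ± 1.35, Per2 2.34 ± 1.12, Npas2 1.38 ± 1.16 and Per3 0.388 ± 0.302 CPM per kb. Nr1d1 was above Nr1d2 in 12 of 12 mice and Cry1 was above Arntl in 11 of 12. The other neighbours in this order changed places between mice: Dbp was above Clock in 5 of 12 and Arntl above Per2 in 7 of 12, and each of those differences in mean was smaller than the spread between mice. Per3 lies inside Camta1 on the same strand in the annotation, so its low level carries an uncertainty from reads that fall on both genes. Nr1d1 overlaps Thra and Dbp overlaps Sphk2 on the opposite strand, which the reverse-strand count keeps apart.

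**Figure D1:**
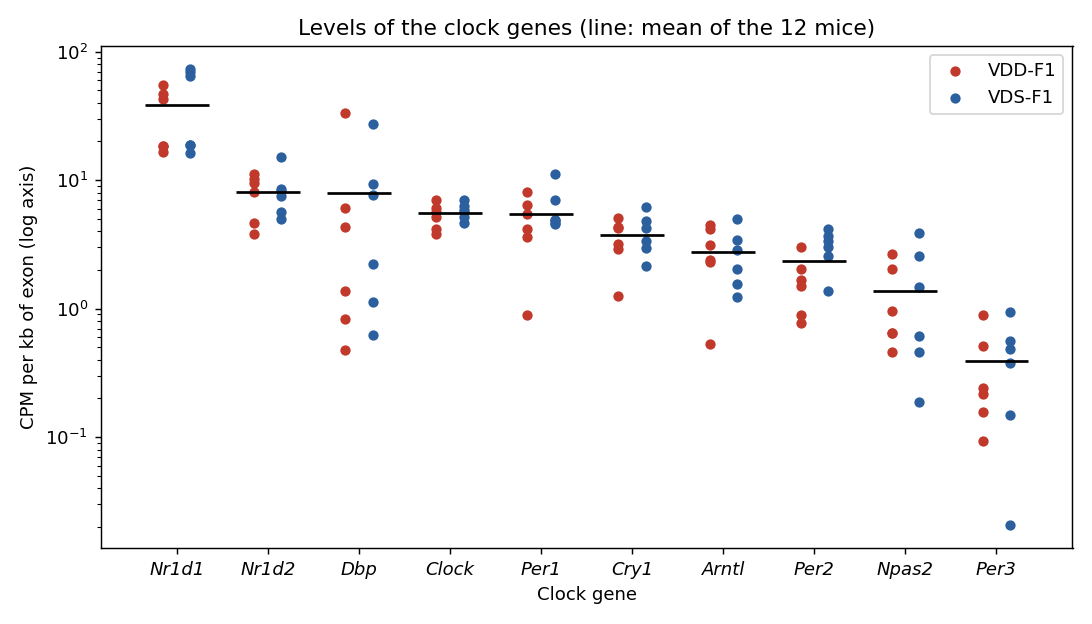
Level of each clock gene in each mouse, as CPM per kb of exon on a log axis, with VDD-F1 mice in red, VDS-F1 mice in blue and the mean of the 12 mice as a line. Nr1d1 lies above all others at 38.4 CPM per kb, Per3 is lowest at 0.388, and Dbp spans the widest range.

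Most clock genes varied more between mice than most liver genes did. Over the 12 mice the SD of log2 CPM had a median of 0.89 over the 10 clock genes and of 0.27 over the 12453 genes tested, and 7 of the 10 had an SD above that of 90% of those genes. Dbp, a transcription factor and the standard reporter of clock output, had an SD of 2.04, above that of 99.8% of genes, and its highest level was 70.4 times its lowest. Per3 (1.40), Npas2 (1.26), Nr1d1 (0.91), Arntl (0.90), Per1 (0.88) and Per2 (0.79) followed. Clock, known to vary little over the day, had an SD of 0.28, above that of 51.1% of genes, and ranged over 1.85-fold.

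Nr1d1, the repressor that feeds back on Arntl, divided the mice most plainly. In the 5 mice with no weight on record it stood at 145, 131 and 170 CPM in VDD1 to VDD3 and at 49.7 and 57.6 CPM in VDS1 and VDS2. In the 7 with a weight it stood at 51.1, 57.1 and 56.4 CPM in VDD4 to VDD6 and at 213, 227, 200 and 58.0 CPM in VDS3 to VDS6. The levels thus left a gap between 58.0 CPM (VDS6) and 131 CPM (VDD2) with no mouse in it, and 3 mice of each diet lay on each side. The groups by diet overlapped, since VDD-F1 ranged from 51.1 to 170 CPM (median 94.3) and VDS-F1 from 49.7 to 227 CPM (median 129).

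Dbp followed the same division. It stood at 12.9, 99.8 and 18.1 CPM in VDD1 to VDD3, at 3.35 and 6.66 in VDS1 and VDS2, at 2.47, 1.42 and 4.10 in VDD4 to VDD6, and at 22.9, 28.0, 82.0 and 1.86 in VDS3 to VDS6. The 6 mice highest in Dbp were the 6 highest in Nr1d1, and the lowest of them (12.9 CPM in VDD1) was 1.93 times the next (6.66 CPM in VDS2). VDD2 and VDS5 were far above the rest.

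Arntl, Npas2 and Cry1 had the opposite order. Arntl, the obligate partner in the activating pair, was lowest in VDD2 (3.96 CPM) and VDS5 (9.22 CPM), the mice highest in Dbp, and highest in VDS6 (37.3 CPM), VDD5 (33.7 CPM) and VDD4 (31.3 CPM). Npas2 ranged from 0.90 CPM in VDS5 to 18.6 CPM in VDS6, and Cry1 from 4.17 CPM in VDD2 to 20.8 CPM in VDS1. For each of these 3 genes, the 6 mice with the lowest levels were the 6 highest in Nr1d1. Nr1d2 shared 5 of its highest 6 mice with Nr1d1, and Per3 also 5. These orders describe 12 mice and were noticed in the values, so they carry no test.

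**Figure D2:**
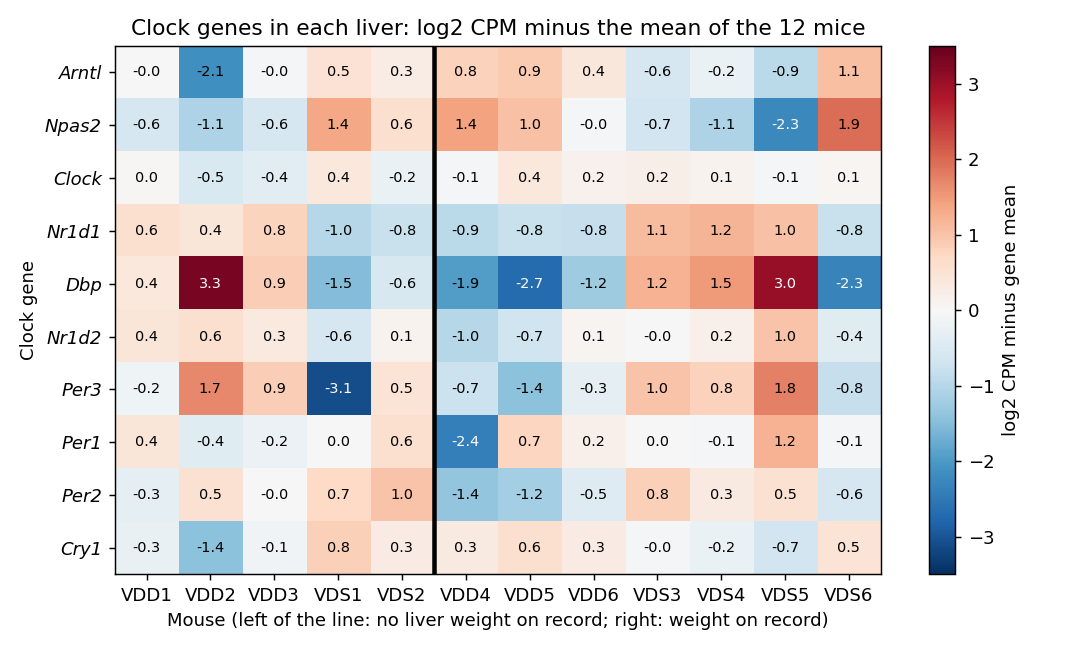
Log2 CPM of each clock gene minus its mean over the 12 mice, with genes in the order of their known daily peak and mice separated by whether a liver weight is on record. Red marks levels above the gene's mean and blue levels below it: Nr1d1 and Dbp are red together in VDD1 to VDD3 and VDS3 to VDS5, where Npas2 and Cry1 lie at or below their means.

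The 2 arms of the loop can be set against each other within a mouse, where the scaling of the library drops out. The ratio of Dbp to Arntl was 25.2 in VDD2 and 8.89 in VDS5, and 0.0421 in VDD5 and 0.0498 in VDS6, so the highest ratio was 599 times the lowest. It was 1.95 and 1.83 in VDS3 and VDS4, 1.04 in VDD3 and 0.721 in VDD1, and between 0.0789 and 0.312 in VDD4, VDD6, VDS1 and VDS2. Both ends of the order thus held 1 mouse of each diet. The mean log2 CPM of Per1, Per2, Per3, Nr1d1, Nr1d2 and Dbp minus that of Arntl, Clock and Npas2 ran from 2.48 in VDS5 and 2.23 in VDD2 to -1.89 in VDS6 and -2.15 in VDD4. The mice above the gap in Nr1d1 all lay above 0 on this measure, and the mice below that gap all lay below 0. VDS2 (-0.10) and VDD1 (0.37) lay nearest to 0, so the mice parted at the same place but without a wide gap.

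**Figure D3:**
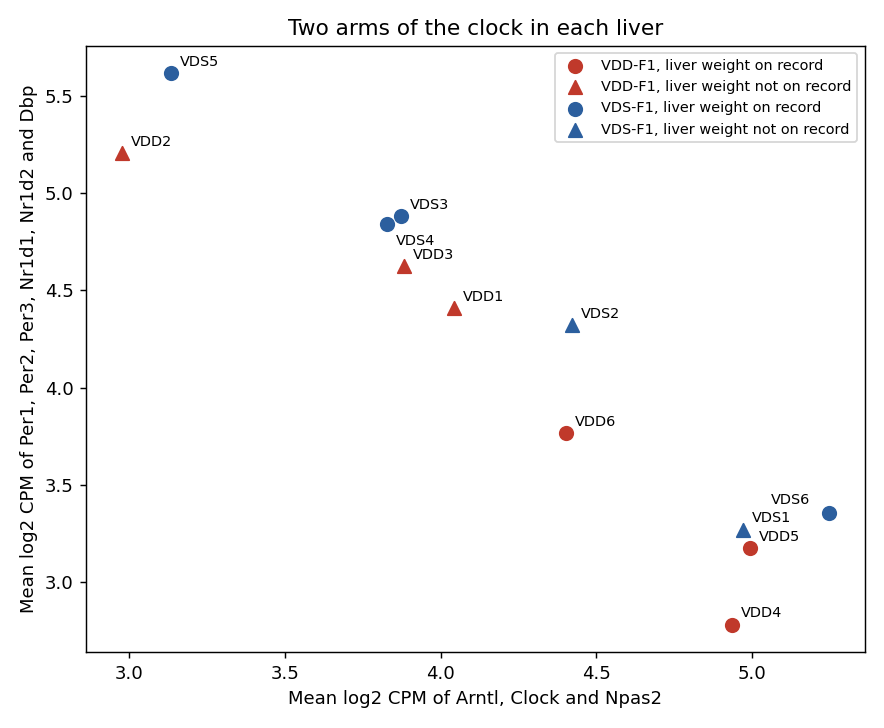
Each mouse placed by the mean log2 CPM of Arntl, Clock and Npas2 (x axis) and of Per1, Per2, Per3, Nr1d1, Nr1d2 and Dbp (y axis), with colour for the diet of the mother and shape for the set of mice. VDS5 and VDD2 lie at the upper left and VDS6, VDS1, VDD5 and VDD4 at the lower right, so both diets occur at both ends.

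Per1 and Per2, which inhibit the activating pair with the CRY proteins, kept less to this order. Per2 shared 4 of its highest 6 mice with Nr1d1, and Per1 shared 2. VDS1 and VDS2 had low Nr1d1 but were among the 3 highest in Per2 (19.6 and 24.4 CPM), and the ratio of Per2 to Nr1d1 was 0.394 and 0.423 in them, against 0.0667 to 0.155 in the other 10 mice. In this respect VDS1 and VDS2 differed from VDS6, which had low Nr1d1 and also low Per2 (8.07 CPM).

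Per1, which glucocorticoid hormones also induce, ranged from 5.0 CPM in VDD4 to 63.0 CPM in VDS5. VDD4 and VDD5 were near each other in Per2 (4.52 and 5.25 CPM), in Nr1d1 and in Arntl, yet Per1 stood at 5.0 CPM in the first and 45.4 CPM in the second. Fkbp5, another gene known to be induced by glucocorticoids, stood at 11 CPM in VDD4, its lowest level, and at 22.5 CPM in VDD5. It was highest in VDS5 (60.1 CPM), where Per1 was also highest, and nearly as high in VDD1 (59.4 CPM), where Per1 stood at 36.2 CPM. Fkbp5 was named after its values were seen, and other genes listed as glucocorticoid responsive differed from it. Tsc22d3 (24.4 CPM), Dusp1 (14.5 CPM) and Tat (761 CPM) were lowest in VDD-F1 mice without a weight on record. Zbtb16 (13.8 CPM) was lowest in a VDD-F1 mouse with one. Of the 10 glucocorticoid response genes listed, 0 passed the test between the diets with edgeR (5 at an unadjusted p under 0.05, against 0.0402% and 15.8% of all genes, of which Cdkn1a, a cell cycle inhibitor, and the metallothionein Mt1 had the smallest p), and Sgk1, a kinase gene, alone passed that of the diet by set interaction, as 0.0883% of all genes did (log2 difference 2.77, adjusted p = 0.0321, edgeR quasi-likelihood test). Sgk1 did not follow Per1, since it was highest in VDD4, where Per1 was lowest. It was higher in VDD4 to VDD6 (64.3, 43.0 and 32.7 CPM) than in VDS3 to VDS6 (14.7 to 17.6 CPM), and lower in VDD1 to VDD3 (11.9 to 28.7 CPM) than in VDS1 and VDS2 (40.0 and 41.0 CPM).

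Between VDD-F1 and VDS-F1, no clock gene passed the test over the 12 mice. With edgeR's quasi-likelihood test and Benjamini-Hochberg adjustment over 12453 genes, 0 of 10 passed an adjusted p of 0.05, as 0.0402% of all genes did, and 0 passed with DESeq2, where 4.05% of all genes did. At an unadjusted p under 0.05 there was 1 of 10, Per2, against 15.8% of all genes. The groups overlapped for all 10, where 1.18% of genes had groups that did not. Per2 stood between 4.52 and 17.6 CPM (median 9.26) in VDD-F1 and between 8.07 and 24.4 CPM (median 18.6) in VDS-F1, a log2-fold change of -0.88 ± 0.31 (SE) with an adjusted p of 0.197. The median log2-fold change was -0.22 over the clock genes and 0.00 over all genes.

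The spread between mice left wide limits on these differences. Dbp had a log2-fold change of -0.05 with a standard error of 0.99, Per3 -0.25 ± 0.65, Npas2 -0.31 ± 0.62, Nr1d1 -0.40 ± 0.45 and Arntl 0.08 ± 0.41. Clock (-0.12 ± 0.14) and Nr1d2 (-0.07 ± 0.29) were measured more closely. The value for Dbp moved between -1.65 and 0.88 when single mice were left out, reaching -1.65 without VDD2 and 0.88 without VDS5.

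The same comparison within each set gave opposite directions for most of the genes. Among the 7 mice with a weight on record, 4 of 10 clock genes passed the test, all lower in VDD-F1, where 11% of all genes passed in either direction and 5.11% were lower: Dbp (log2-fold change -3.64 ± 0.89, adjusted p = 0.0225), Nr1d1 (-1.67 ± 0.35, adjusted p = 0.0107), Per3 (-1.76 ± 0.51, adjusted p = 0.0462) and Per2 (-1.32 ± 0.31, adjusted p = 0.0187, all by edgeR). VDS6, the library that stood apart, also lay with the low mice in Nr1d1, so a fit without it, chosen after seeing the data, removes a mouse that went against the others of its group and is given as values only. There the log2-fold changes were -4.04 for Dbp, -1.97 for Nr1d1, 1.27 for Arntl, 2.13 for Npas2 and 0.68 for Cry1. Among the 5 mice with no weight on record, 3 VDD-F1 against 2 VDS-F1, 0 of 10 passed and 0% of all genes did, while 6 of 10 had an unadjusted p under 0.05 against 3.77% of genes. Those 6 were Dbp (log2-fold change 3.14 ± 0.99), Nr1d1 (1.47 ± 0.18) and Nr1d2 (0.65 ± 0.23), with values above 0, and Npas2 (-1.80 ± 0.34), Cry1 (-1.10 ± 0.40) and Per2 (-0.74 ± 0.27), with values below 0. Per3 (1.48 ± 1.03) and Arntl (-0.86 ± 0.55) did not pass the unadjusted threshold either.

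Nr1d1 was the only clock gene in which every VDD-F1 mouse lay on one side of every VDS-F1 mouse in 1 set and on the other side in the other set, as 1.24% of all genes did. In the set with weights the margin was narrow, 58.0 CPM in VDS6 against 57.1 CPM in VDD5, since VDS6 lay with the low mice. In the set without, it ran from 57.6 CPM in VDS2 to 131 CPM in VDD2. Per2 had a log2-fold change below 0 in both sets, past the adjusted test in the mice with a weight and not in those without.

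The difference between the sets was tested as a diet by set interaction. By edgeR 0 of 10 clock genes passed, with 0.0883% of all genes past the test, and 5 of 10 had an unadjusted p under 0.05, against 9.01% of all genes. The 5 were Nr1d1 (interaction -3.14 ± 0.53 on the log2 scale, adjusted p = 0.0573), Dbp (-6.78 ± 1.61, adjusted p = 0.175), Cry1 (1.56 ± 0.47), Per3 (-3.25 ± 1.18) and Nr1d2 (-1.38 ± 0.50). DESeq2's Wald test called 2 of them, Nr1d1 and Dbp, where it called 1.11% of genes. Without VDD2, edgeR called 2 as well, Nr1d1 (adjusted p = 0.00656) and Dbp (adjusted p = 0.0492), in a fit that called 2.68% of all genes. Without VDS6 it called 2, Nr1d1 and Npas2, with 0.2% of all genes, but that fit drops the mouse that went against its group on Nr1d1 and is given as a value only. The call of the interaction therefore rested on single mice, on the filter and on the tool, while the direction for Nr1d1 and Dbp was negative in each fit with 1 mouse left out. Per1 had the smallest interaction of the 10 (-0.05 ± 0.81).

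**Figure D4:**
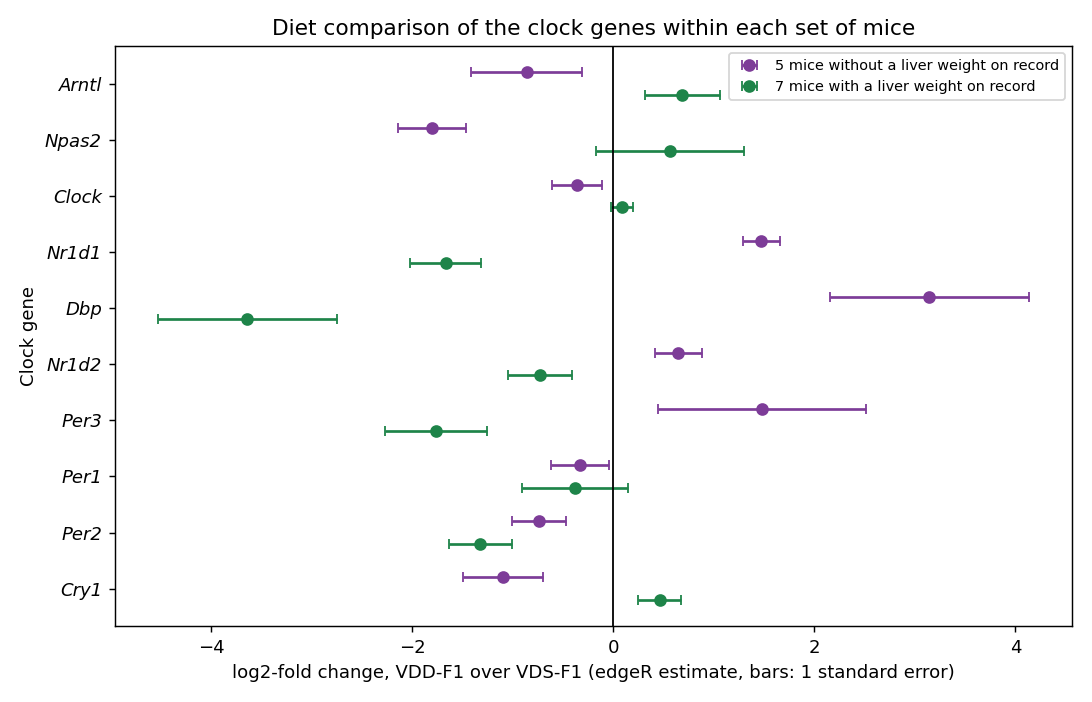
Log2-fold change of each clock gene, VDD-F1 over VDS-F1, from separate edgeR fits in the 5 mice without (purple) and the 7 mice with (green) a liver weight on record, with bars of 1 standard error. Dbp, Nr1d1, Nr1d2 and Per3 lie on opposite sides of 0 in the 2 sets, as do Arntl, Npas2 and Cry1 the other way round, and Per2 is below 0 in both.

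With the set as a term in the model, the diet comparison again called 0 of 10 clock genes, against 0.225% of all genes, with 1 of 10 at an unadjusted p under 0.05, against 17% of all genes. That gene was Per2 (log2-fold change -1.08 ± 0.25, adjusted p = 0.0699 by edgeR), which DESeq2 did call, as it called 4.96% of all genes. Without VDD1 or without VDD2 edgeR called it as well (adjusted p = 0.0429 and 0.0366), in fits that called 4.75% and 0.711% of all genes.

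Between the sets, 7 mice with and 5 without a weight, 0 of 10 clock genes passed with edgeR and the diet as a term, where 2.46% of all genes did. Per2 alone had an unadjusted p under 0.05, against 13.9% of genes, and was lower with a weight on record (log2-fold change -0.79 ± 0.25, adjusted p = 0.136), and DESeq2 called it, with 4.67% of all genes. No clock gene was free of overlap between the sets, where 1.8% of all genes were.

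**Figure D5:**
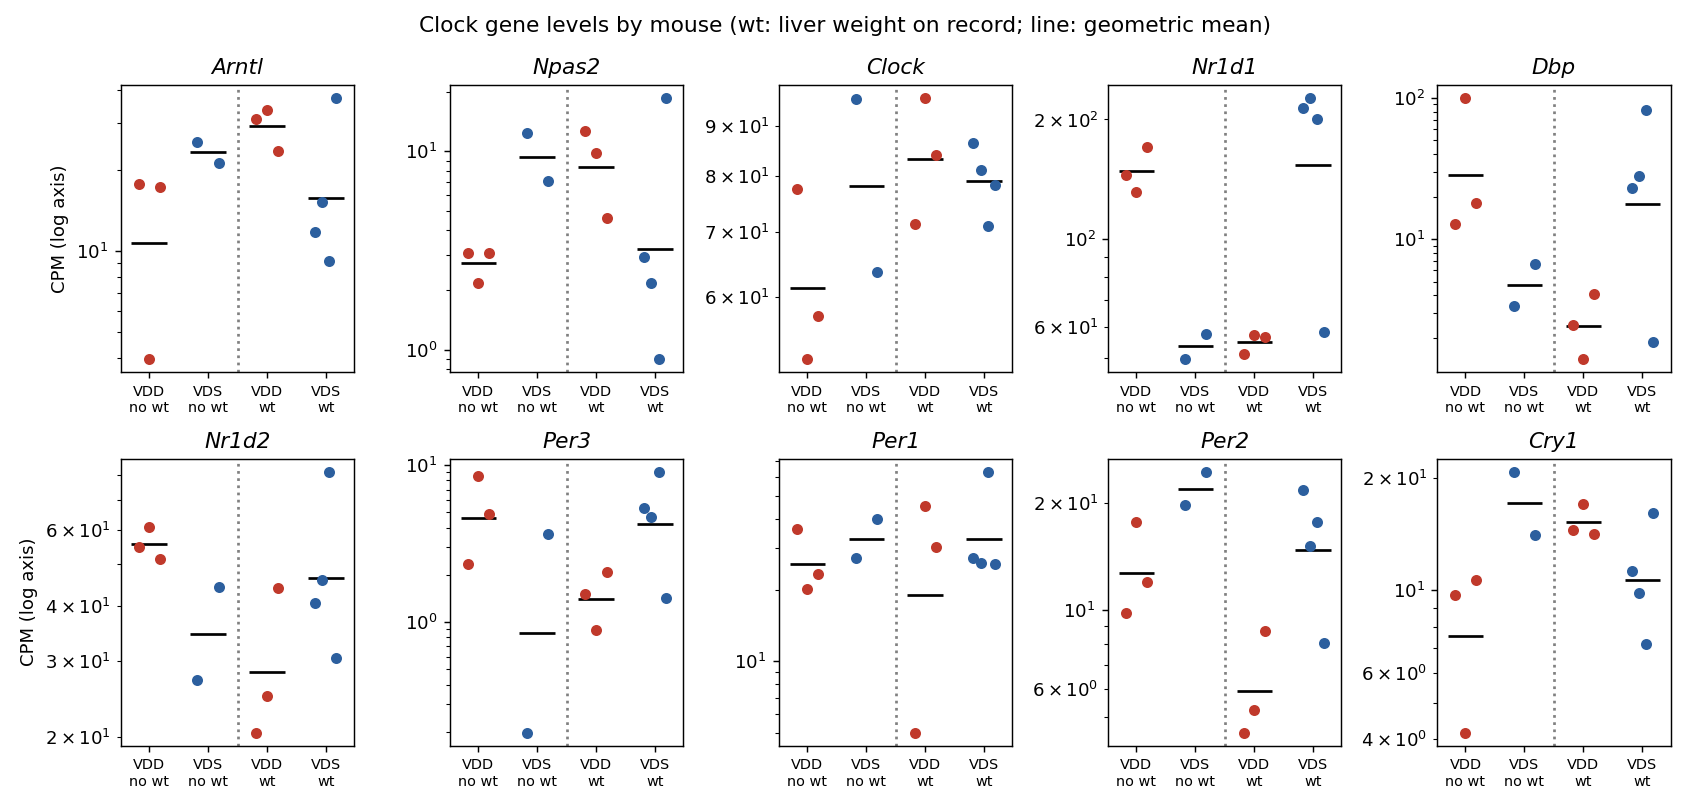
CPM of each clock gene in each mouse on a log axis, by diet and by whether a liver weight (wt) is on record, with the geometric mean of each group as a line. For Nr1d1 the VDD-F1 mice lie above the VDS-F1 mice in the set without weights (131 to 170 against 49.7 to 57.6 CPM) and below them in the set with weights.

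Other components of the clock, a list of 19 genes, were compared in the same fits. By diet 0 of 19 passed with edgeR (0.0402% of all genes), 4 had an unadjusted p under 0.05 (15.8%) and 2 passed with DESeq2 (4.05%), Cry2 and Hlf. Cry2, the second cryptochrome, had a log2-fold change of -0.52 and Hlf, a relative of DBP, of -0.52. Hlf stood between 38.0 and 57.8 CPM in VDD-F1 and between 50.6 and 81.8 CPM in VDS-F1, so the groups overlapped. With the set as a term, Cry2 passed with edgeR (-0.59, adjusted p = 0.0468), a call that the count without strand and 9 of the 12 fits without 1 mouse did not make. The casein kinase Csnk1e (0.37), which marks PER proteins for turnover, had an unadjusted p under 0.05 only.

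In the interaction 0 of 19 other components passed with edgeR (0.0883% of all genes), 5 had an unadjusted p under 0.05 (9.01%) and 3 passed with DESeq2 (1.11%). Those 3 were Bhlhe41 (interaction -4.46), a repressor that acts on E-boxes, Tef (-1.89), another relative of DBP, and Nfil3 (1.98), which opposes DBP at D-boxes. Tef stood at 115 CPM in VDS5 and 74.1 in VDD2, its highest levels, and at 22.3 CPM in VDD5, its lowest. Nfil3 ran the other way, with 8.75 CPM in VDD2 and 19.0 in VDS5, its lowest levels, and 61.4 in VDS1. The repressor Ciart had between 0 and 7.07 CPM, with its highest levels again in VDS5 and in VDD2 (4.01 CPM), and its interaction was -4.71. Between the sets 0 of 19 passed with edgeR (2.46% of all genes) or DESeq2 (4.67%), and 1 had an unadjusted p under 0.05 with edgeR (13.9%), Cry2 (-0.35), followed by the E-box repressor Bhlhe40 (-0.48).

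Of 21 genes listed as rhythmic outputs in liver, 0 passed by diet with edgeR (3 at an unadjusted p under 0.05, against 15.8% of all genes) and 2 with DESeq2, Cyp2a4 and Slc1a5, against 0.0402% and 4.05% of all genes. With the set as a term edgeR called 1 of 21, Cyp2a4 (adjusted p = 0.0388), against 0.225% of all genes. Cyp2a4, a steroid hydroxylase, stood at 40.3, 36.1, 26.5 and 25.2 CPM in VDD2, VDD4, VDD5 and VDD6 and at most at 0.416 CPM in the other 8 mice, so it was high in 4 of 6 VDD-F1 mice and on both sides of the Nr1d1 gap. It is nearly identical to Cyp2a5 in sequence, so reads shared between them make its level uncertain. Slc1a5, an amino acid transporter, had a log2-fold change of 1.53 and Nr1i3, a nuclear receptor, of -0.83. Between the sets 3 of 21 passed with edgeR, against 2.46% of all genes: Ces2a, a carboxylesterase (1.55, adjusted p = 8.5e-06), and Cyp2a5 (1.26, adjusted p = 0.00169) were higher with a weight on record, and Insig2, a regulator of sterol synthesis, was lower (-0.78, adjusted p = 0.0266). At an unadjusted p under 0.05 there were 8 of 21, against 13.9% of all genes, 4 with values above 0 and 4 below. Those that did not pass were Por (0.63), Tfrc (0.50), Rgs16 (-4.27), Mfsd2a (-1.0) and Gys2 (-0.41).

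The interaction had 10 of 21 output genes at an unadjusted p under 0.05, against 9.01% of all genes, and 0 past the edgeR test, against 0.0883%. Rgs16 (interaction -6.82), Gys2, the liver glycogen synthase (-0.86), Usp2, a deubiquitinase of the clock (-3.33), and Alas1, the first enzyme of heme synthesis (-2.01), were among them. Rgs16, a regulator of G protein signalling that fasting and time of day are known to change, stood between 0.274 and 0.998 CPM in VDD4 to VDD6 and between 15.4 and 196 CPM in VDD1 to VDD3. In VDS-F1 it stood between 2.07 and 108 CPM with a weight on record and at 23.8 and 105 CPM without, so these overlapped.

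Of 10 genes known to answer feeding, 4 passed between the sets with edgeR, against 2.46% of all genes, all lower with a weight on record: Pnpla3, a lipid droplet protein (-3.56, adjusted p = 0.00595), Fasn, fatty acid synthase (-1.90, adjusted p = 0.00882), Elovl6, a fatty acid elongase (-1.20, adjusted p = 0.0327), and Pklr, pyruvate kinase (-1.72, adjusted p = 0.039). The list had a median of -1.29, and all genes -0.01. Fasn stood at 4167 CPM in VDD1 and 5259 in VDD3 and at 5919.9 in VDS2, with high and low Nr1d1 alike, and at 1099 CPM in VDD2. By diet 0 of 10 passed, against 0.0402% of all genes, and 0 had an unadjusted p under 0.05, against 15.8%.

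Of the 10 genes known to rise in fasting, 1 passed between the sets, the hormone gene Fgf21 (-1.80, adjusted p = 0.0462 by edgeR, lower with a weight on record), against 2.46% of all genes, and 5 of 10 had an unadjusted p under 0.05, all with values below 0, against 13.9% of all genes. By diet 0 of 10 passed, against 0.0402% of all genes, and 2 had an unadjusted p under 0.05, against 15.8%. Those 2 were Fgf21 (1.45) and Cyp4a14, a fatty acid hydroxylase (1.11). Of the 10 genes known to follow body temperature, 0 passed by diet (0.0402% of all genes), by set (2.46%) or in the interaction (0.0883%). At an unadjusted p under 0.05 there were 4 by diet (15.8%) and 4 by set (13.9%), and the smallest p by diet were those of the heat shock protein Hsph1 (-0.71) and of Cirbp, an RNA-binding protein induced by cold (0.58). Of the 5 erythroid markers, the 4 hemoglobin genes were lower with a weight on record (Hbb-bs at -1.70, adjusted p = 0.00671 by edgeR), against 2.46% of all genes called, while Alas2, the first enzyme of heme synthesis in red cells, had a log2-fold change of 0.35 that did not pass. Whether feeding, blood content or the hour of sampling had a part in the clock values was not tested.

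The genes outside these lists with the profile nearest to the mean of Per1, Per2, Per3, Nr1d1, Nr1d2 and Dbp over the 12 mice were Rbm14, Limd1, Klf13, Gpcpd1 and Syde2, at a root mean square difference of 0.418 to 0.523 SD units. Nr1d2 (0.352) and Dbp (0.406), which enter that mean, were the nearest of all tested genes and Tef (0.416) was next, while Per1 (0.954) ranked 499. Klf13 ranged from 45.4 to 123 CPM and Gpcpd1 from 19.9 to 90.1 CPM. Of all tested genes, the nearest to the mean of Arntl, Clock and Npas2 was Cry1 (0.320), which does not enter that mean, followed by Arntl (0.362). Outside the lists the nearest were Caprin1, Clpx, 4932438A13Rik, Sgpl1 and Elp4, at 0.393 to 0.495 SD units.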

How the data were processed

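Liver RNA of 12 mice was sequenced after depletion of ribosomal RNA. The authors aligned the reads with STAR to mm10 (GENCODE M15 annotation) and deposited the raw count of each gene in 3 columns (no strand, forward, reverse), without normalization. The reverse-strand counts were used, which held 92.7% to 95.8% of stranded counts. Rows that name no gene (37.4% to 50.3% of fragments) were left out. Symbols and positions came from GENCODE M21 on GRCm38, and promoters from RefSeq. Genes whose mean count reached 12 were scaled by TMM and fitted with edgeR 4.0.16 in R 4.3.3 (quasi-likelihood test, legacy form, Benjamini-Hochberg adjustment, threshold 0.05), where the study used DESeq2, run here (1.42.0) as an alternative. Standard errors were derived from the F statistic. Log2 CPM used a prior count of 2. The comparisons were diet, set of mice, diet with the set as a term, and their interaction. The set was taken from the study's supplement, matched to the libraries by name, and is not part of the sample labels. Nothing says how mice were shared among litters, so p-values measure the spread between these mice only. The fits were tested on simulated data.

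The alternatives were DESeq2, its size factors, a total count of 12 as the filter, the count without strand, a replicate block, each set or diet alone, and each mouse left out. The mice with a weight but VDS6, and the alternatives of the interaction for single genes and for other components, were added after seeing the data. Named genes were all 10 clock genes, up to 5 per other list by smallest p by diet and by set, the 5 nearest profiles to each arm, and genes with a far sample. Other genes the text names (Sgk1, Fkbp5, Ciart, Bhlhe41, Tef, Nfil3, Rgs16, Usp2, Alas1) were added after their values were seen if no rule picked them. The clock genes and lists were chosen with earlier results of these data known. Counting error sets the precision of the lowest values.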

Additional observations from a re-analysis of the deposited data

Results flagged for a closer look

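In 3 clock genes a mouse lay far from the others of its group, by Dixon's ratio of the gap to the range. Dbp was at 99.8 CPM in VDD2, where the next VDD-F1 mouse had 18.1 CPM, and at 82.0 CPM in VDS5, where the next VDS-F1 mouse had 28.0 CPM. In VDS5, Nr1d2 was at 81.5 CPM against 46.0 CPM in the next mouse, and Per1 at 63.0 CPM against 39.7 CPM. These are 4 far samples among 20 groups of 6 mice, and 3 of the 4 come from the same mouse. Chance would flag about 1 group in 20 if values were normally distributed and groups independent. The ratio was taken on CPM and not on log2 CPM, and the genes share the same mice. That rate therefore does not hold here, and the number of far samples is a description only.

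The diet comparison of Nr1d1 ran in opposite directions in the 2 sets of mice, with every VDD-F1 mouse above every VDS-F1 mouse in one and below in the other. The interaction was -3.14 on the log2 scale with an adjusted p of 0.0573 by edgeR's quasi-likelihood test, so it missed the threshold. Over the 12 fits without 1 mouse it lay between -3.43 and -2.99.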

How the results depend on the processing

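Low counts limit Per3 and Npas2 most, and each set holds few mice. The count without strand, DESeq2's size factors and the other filter turned no clock gene's direction. DESeq2 called 1 clock gene by set and 1 by diet with the set as a term, 2 in the interaction, 2 other components by diet, 2 with the set as a term and 3 in the interaction, 5 output genes by set and 2 by diet, where it called 4.05% of all genes by diet, 4.67% by set, 4.96% with the set as a term and 1.11% in the interaction. A total count of 12 as the filter gave 1 clock gene in the interaction, Nr1d1 (0.0788% of all genes). Cry2, called by diet with the set as a term, was lost with the count without strand (0 components). In the mice with a weight on record alone the diet calls were 4 clock genes, 5 other components and 7 output genes, beside 11% of all genes, and Clock (0.09), Npas2 (0.57) and Cry1 (0.46) turned direction. A fit without VDS6 as well was added after seeing the data and drops a mouse that went against its group, so its counts (7, 6 and 9, beside 12.9% of all genes) support nothing, with Clock at 0.07, Npas2 at 2.13 and Cry1 at 0.68. In the mice without one, Per3 (1.48), Nr1d1 (1.47), Nr1d2 (0.65), Dbp (3.14) and Arntl (-0.86) turned. The set comparison in VDD-F1 alone called 1 clock gene, Nr1d1 (-1.44), and 0.285% of all genes. In VDS-F1 alone it turned for Per3 (1.45), Nr1d1 (1.71), Nr1d2 (0.48), Dbp (2.77), Arntl (-0.36), Clock (-0.01), Npas2 (-0.68) and Cry1 (-0.65). The cause was not tested.

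Equal replicate numbers mark different mice, and same-numbered mice did not deviate together (r of -0.08 to 0.10, with 0 of 6 closest to its own number). Only the mice numbered 3 differ in set within a number, so a block leaves the set comparison to 1 pair and its loss of calls follows from the design. As an alternative only, the replicate block gave 1 output gene by diet, 0 by set and 0 other components with the set as a term, beside 0.153%, 0% and 0.104% of all genes, and the set comparison turned for Per1 (-0.35), Per3 (0.07), Nr1d1 (0.09), Dbp (0.21), Arntl (-0.67), Npas2 (-0.27) and Cry1 (-0.16).

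With each mouse left out, clock genes past the test numbered 0 to 1 by diet with the set as a term (1 without VDD1 or VDD2) and 0 to 2 in the interaction (2 without VDD2, or without VDS6, which drops the mouse that went against its group). Other components numbered 0 to 2 by diet (calls without VDD1 or VDD3), 0 to 2 with the set as a term (calls without VDD1, VDD2 or VDD3) and 0 to 2 in the interaction (calls without VDD2), and output genes 0 to 2 by diet (calls without VDD1 or VDD3). Over all genes the diet calls went from 0.0402% to 3.37% without VDD1 and 1.14% without VDD3, those with the set as a term from 0.225% to 4.75% without VDD1, 0.711% without VDD2 and 2.54% without VDD3, and those of the interaction from 0.0883% to 2.68% without VDD2 and 0.2% without VDS6. The diet log2-fold change ran from -0.81 to 0.15 for Per3, -0.20 to 0.18 for Nr1d2, -1.65 to 0.88 for Dbp, -0.10 to 0.35 for Arntl, -0.68 to 0.20 for Npas2 and -0.32 to 0.00 for Cry1. That of the set ran from -0.23 to 0.29 for Per1, -1.10 to 0.09 for Per3, -0.69 to 0.20 for Nr1d1, -0.13 to 0.92 for Npas2 and -0.11 to 0.43 for Cry1, and the interaction of Per1 from -0.67 to 0.43.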

Other observations

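The strand opposite to Per2 carried fragments in 11 of 12 libraries. There were 14, 6, 0, 4, 14 and 10 of them in VDD1 to VDD6 and 19, 19, 6, 9, 8 and 11 in VDS1 to VDS6, 4.12% of all stranded counts on the gene. The annotation used here has no gene overlapping Per2 on that strand. Of the other clock genes with no annotated gene on the opposite strand, Per3 had 0 opposite counts in all, Nr1d2 0.204%, Per1 0.303%, Clock 0.465% and Cry1 0.659%. Over all genes the opposite share was 4.94%, which includes genes that overlap others.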
